A study of Mus musculus with 6 samples.

Results

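Histone genes encode the proteins around which DNA is wound in the nucleus, and their levels were compared here between adrenal glands labelled as Gata6 conditional knockout (cKO) and control adrenal glands of the mouse. The genes were selected by symbol alone: every probe whose symbol in the signal file began with Hist1h, Hist2h, Hist3h or Hist4h, with H2af or with H3f3, or was H1f0 or H1fx. No signal entered this choice, but the family was taken up with the cKO against control results of these arrays known. Its differences and adjusted p-values are therefore given as a description, and nothing is supported with them. The selection held 70 genes with 107 probes, of 30869 symbols and 45281 probes on the array. Of the 70 genes, 59 lay in the replication-dependent Hist1 to Hist4 clusters and 11 encoded variant or replacement histones, namely H1f0, H1fx, H2afj, H2afv, H2afx, H2afy, H2afy2, H2afy3, H2afz, H3f3a and H3f3b.

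The tissue was whole adrenal gland of virgin, adult B6.FVB females, 3 samples from mice carrying the conditional deletion of Gata6 in the adrenal gland and 3 from mice without it, described as normal. Gata6 is a zinc finger transcription factor. The sources used here give neither the promoter that drives the deletion, nor the age in weeks, nor whether each sample was 1 animal. The p-values thus rest on a spread between samples that may be technical in origin. RNA was copied into biotin-labelled cRNA and hybridised to Illumina bead arrays, and levels are given as normalised log2 intensity. In bulk tissue, fewer cells of a type and less RNA per cell cannot be told apart.

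The arrays labelled cKO detected 19308 to 19459 probes and the control arrays 18314 to 19007, and the median signal before normalisation was 10.04 to 10.93 in the first group and 9.15 to 10.01 in the second. Gata6 itself read 11.80, 11.66 and 11.71 on control arrays 1 to 3 and 11.99, 12.06 and 12.31 on the arrays labelled cKO. It was thus not below control under the label, with a difference of 0.40 (SE 0.10, limma adjusted p = 0.0545). Whether this probe lies inside or outside the deleted part is not stated, and outside it the probe would check nothing. Below, cKO and control name the arrays by their labels, and every direction rests on those labels. All 6 adrenal cortex markers, among them Star and Cyp11b1, were tested and 0 passed the threshold, as 0 did at an unadjusted p under 0.05. Over all tested probes, 4364 of 19210 had an unadjusted p under 0.05 in limma.

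Each nucleosome holds pairs of the core histones H2A, H2B, H3 and H4, and linker histone H1 binds where DNA enters and leaves it. Replication-dependent histone genes sit in clusters, have no introns, and are transcribed mainly while DNA is copied. Their mRNAs usually end in a stem-loop bound by the stem-loop binding protein in place of a poly(A) tail, although polyadenylated forms of some exist. Variant histones such as H2A.Z and H3.3 are made through the cell cycle, mostly from mRNAs with introns and poly(A) tails. The adult adrenal cortex renews its cells slowly from the outer zones. The amplification kit named in the labels primes on poly(A) tails as a rule, so an array of this kind reads the polyadenylated part of these mRNAs.

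The promoters of the family are shown first because H2A and H2B genes often share a divergent promoter while H4 genes do not. RefSeq (GRCm38.p6) matched all 70 symbols and gave a promoter window of 300 bases, 250 before and 50 after the start, for 62 genes with 63 windows. Below are the 250 bases before the start of 2 H2B and 2 H4 genes that passed the test, with capitals marking matches on either strand to the octamer ATTTGCAT (reverse ATGCAAAT), to CCAAT (reverse ATTGG) and to TATAA (reverse TTATA). Neighbouring TTATA and TATAA matches can overlap. Hist1h2bk lies at chr13:22035571-22035820 on the plus strand, Hist1h2bm at chr13:21721794-21722043 on the plus strand, Hist1h4i at chr13:22041363-22041612 on the minus strand and Hist1h4m at chr13:21811496-21811745 on the plus strand.
Hist1h2bk: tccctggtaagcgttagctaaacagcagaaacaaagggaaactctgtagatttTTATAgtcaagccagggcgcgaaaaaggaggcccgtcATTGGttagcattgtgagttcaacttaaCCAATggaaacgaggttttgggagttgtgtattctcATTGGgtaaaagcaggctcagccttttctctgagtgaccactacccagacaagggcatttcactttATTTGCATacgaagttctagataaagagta
Hist1h2bm: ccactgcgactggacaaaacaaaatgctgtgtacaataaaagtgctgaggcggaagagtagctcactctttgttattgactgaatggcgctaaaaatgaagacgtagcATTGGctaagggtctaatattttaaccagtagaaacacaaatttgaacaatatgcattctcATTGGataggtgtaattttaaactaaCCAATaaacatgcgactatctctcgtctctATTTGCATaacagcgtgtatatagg
Hist1h4i: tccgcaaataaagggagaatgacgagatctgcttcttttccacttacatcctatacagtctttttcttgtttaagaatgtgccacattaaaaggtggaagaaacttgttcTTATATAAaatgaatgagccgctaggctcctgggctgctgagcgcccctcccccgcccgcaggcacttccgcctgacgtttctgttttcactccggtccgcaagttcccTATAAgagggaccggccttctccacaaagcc
Hist1h4m: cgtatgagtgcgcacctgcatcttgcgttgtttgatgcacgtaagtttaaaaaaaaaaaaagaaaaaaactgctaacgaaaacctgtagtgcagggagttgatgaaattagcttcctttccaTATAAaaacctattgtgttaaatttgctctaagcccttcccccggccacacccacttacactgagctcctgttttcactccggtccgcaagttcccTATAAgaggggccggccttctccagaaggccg

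The octamer stood 30 bases before the start in Hist1h2bk and 25 bases before it in Hist1h2bm, with 3 CCAAT matches further upstream in each. Neither H4 promoter held an octamer or a CCAAT match, and TATAA stood 31 bases before the start of Hist1h4i and 32 bases before that of Hist1h4m. These H4 promoters also shared an unbroken stretch of 38 bases across TATAA, which was found in 2 of 11 H4 windows and 3 of 32851 windows in RefSeq, the TATAA again in capitals.
Stretch shared by Hist1h4i and Hist1h4m: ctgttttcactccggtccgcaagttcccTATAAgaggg

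Over the family, 7 of 13 H2B windows (53.8%) and 7 of 17 H2A windows (41.2%) held the octamer, against 0 of 6 H1, 0 of 7 H3 and 0 of 11 H4 windows, 1 of 9 variant windows (H3f3b) and 1.74% of all windows. Windows of divergent neighbours overlap, so the same match can count for both types. The octamers of Hist1h2ah, Hist1h2ae and Hist1h2aa were the same bases as those of Hist1h2bk, Hist1h2bg and Hist1h2ba. CCAAT was in every H1, H2A, H2B and H3 window, in 3 of 11 H4 and 6 of 9 variant windows and in 37.4% of all windows. TATAA was in 10 of 11 H4, 10 of 13 H2B, 15 of 17 H2A, 5 of 6 H1 and 3 of 7 H3 windows, in 1 of 9 variant windows and in 24.9% of all windows. The octamer is the sequence that the Oct1 factor is known to bind in H2B promoters, but a match in these windows is a description and not a binding site.

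Of the 107 probes, 75 probes of 51 genes were tested, since they were detected (deposited detection p under 0.05) on 3 or more of the 6 arrays. The other 32 probes comprised 22 detected on 0 arrays and 10 detected on 1 or 2. No probe of 19 genes was tested: H2afy3, Hist1h1a, Hist1h1d, Hist1h1e, Hist1h1t, Hist1h2aa, Hist1h2ab, Hist1h2ac, Hist1h2ba, Hist1h2bb, Hist1h2bg, Hist1h3c, Hist1h3g, Hist1h4b, Hist2h2bb, Hist2h4, Hist3h2a, Hist3h2ba and Hist3h2bb. Thus every Hist3 member was below the detection limit on most arrays, as were Hist1h1t, Hist1h2aa and Hist1h2ba, which encode histones known from the testis. Many genes of the same type have similar coding sequences, so a probe may also take up cRNA of a close relative. A value is thus uncertain as to which gene it comes from, and probe sequences were not compared here.

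Every replication-dependent histone probe that passed the test was lower on the arrays labelled cKO, and most of these probes belong to H2B and H4 genes. Of 60 tested replication-dependent probes, 15 probes of 12 genes had an adjusted p under 0.05 (25.0%), all 15 lower, between 59.7% and 75.3% of the control level. The background over all 19210 tested probes was 6.49% in both directions, 2.57% lower and 3.92% higher, and since the family was chosen with this contrast known nothing is read from the gap. The median difference of the 60 probes was -0.32, which is 80.0% of control, against -0.02 over all tested probes, and 54 of 60 lay below 0. On 31 of the 60 the groups did not overlap with cKO below, where 15.0% of all tested probes did so, and on 1 with cKO above, where 13.2% did. The count of 15 changed with the arrays used: it was 4, 2 and 6 without control replicate 1, 2 or 3, and 20, 2 and 2 without cKO replicate 1, 2 or 3. It was 6 when the variance was fitted without an intensity trend, and 0 were higher under each of these settings.

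**Figure D1:**
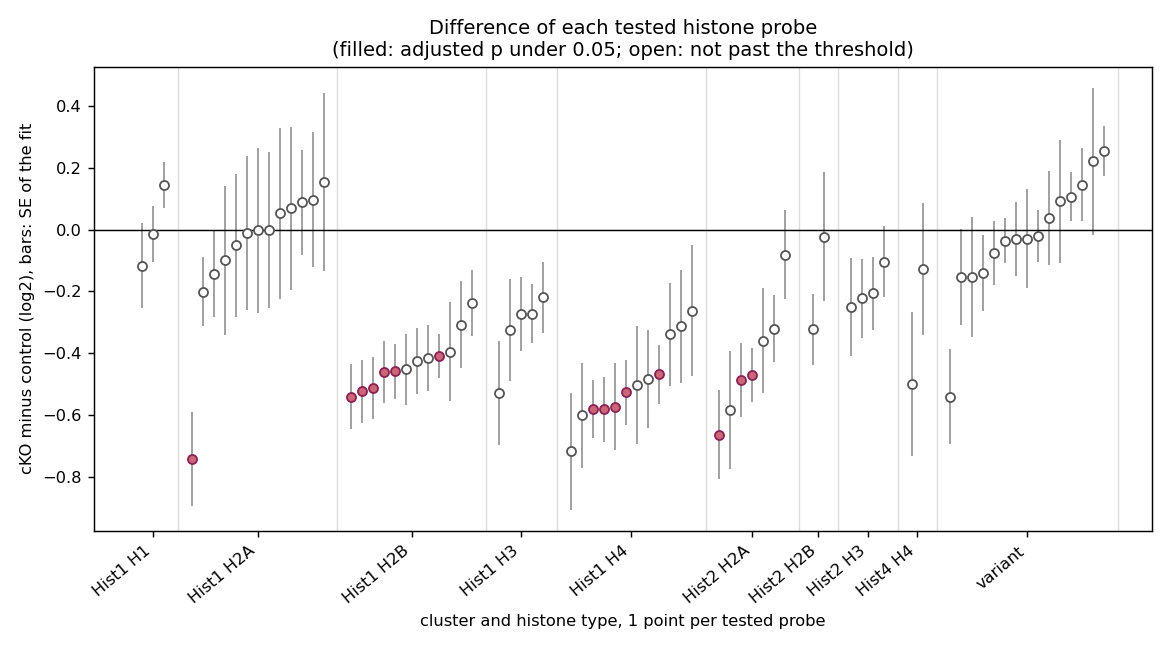
Difference in level, arrays labelled cKO minus control (log2), for each of the 75 tested histone probes, grouped on the x axis by cluster and type. Bars are standard errors of the fit, filled points passed an adjusted p of 0.05 and open points did not; the 15 filled points lie between -0.74 and -0.41 and all belong to H2A, H2B or H4 genes of the Hist1 and Hist2 clusters.

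H2B pairs with H2A in the nucleosome and carries the lysine that is ubiquitinated during transcription. All 14 tested H2B probes, of 9 genes, had a difference below 0, with a median of -0.42 (74.7% of control). On 12 of them the groups did not overlap with cKO below. Among all tested probes 15.0% separated in that way and 2.57% passed as lower. The 6 H2B probes that passed belonged to Hist1h2be, Hist1h2bj, Hist1h2bk and Hist1h2bm, and the other 8 did not pass. That count was 1, 0 and 2 without control replicate 1, 2 or 3, and 9, 1 and 1 without cKO replicate 1, 2 or 3. Hist1h2bm read 11.14, 11.17 and 11.18 on control arrays 1 to 3 and 10.82, 10.51 and 10.58 on cKO arrays 1 to 3. Every cKO array was below every control array, and the controls differed by far less than the gap, which was -0.52 (SE 0.10, limma adjusted p = 0.0212).

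Hist1h2bk, the divergent neighbour of the H2A gene Hist1h2ah, read 11.80, 11.76 and 11.72 in control and 11.41, 11.04 and 11.20 in cKO. Its difference was -0.54 (SE 0.11, adjusted p = 0.0219), and its other probe gave -0.51 (SE 0.10, adjusted p = 0.0216). Both probes of this gene thus moved alike. Hist1h2bj read 12.85, 12.77 and 12.92 in control and 12.50, 12.26 and 12.40 in cKO, without overlap, a difference of -0.46 (SE 0.09, adjusted p = 0.0212).

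Hist1h2be had 3 tested probes. The first read 13.21, 13.20 and 13.19 in control and 12.80, 12.75 and 12.81 in cKO, a fall by 0.41 that is larger than the SD of 0.01 in control and 0.04 in cKO (n = 3 each, adjusted p = 0.0131). Another differed by -0.46 (adjusted p = 0.0314) and the last by -0.24 (adjusted p = 0.228), again with no overlap between the groups. Just outside the threshold stood Hist1h2bn at -0.43 (adjusted p = 0.0525), Hist1h2bh at -0.45 (0.0533) and Hist1h2bf at -0.42 (0.0543). The probes just inside and just outside the threshold therefore had differences of the same size. Of the genes just named, Hist1h2bk, Hist1h2bm and 1 of the 2 windows of Hist1h2be held the octamer, and Hist1h2bj, Hist1h2bf, Hist1h2bh and Hist1h2bn did not. Hist2h2be, the gene with the smallest H2B difference, had probes at -0.32 (adjusted p = 0.139) and -0.02 (adjusted p = 0.965).

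**Figure D2:**
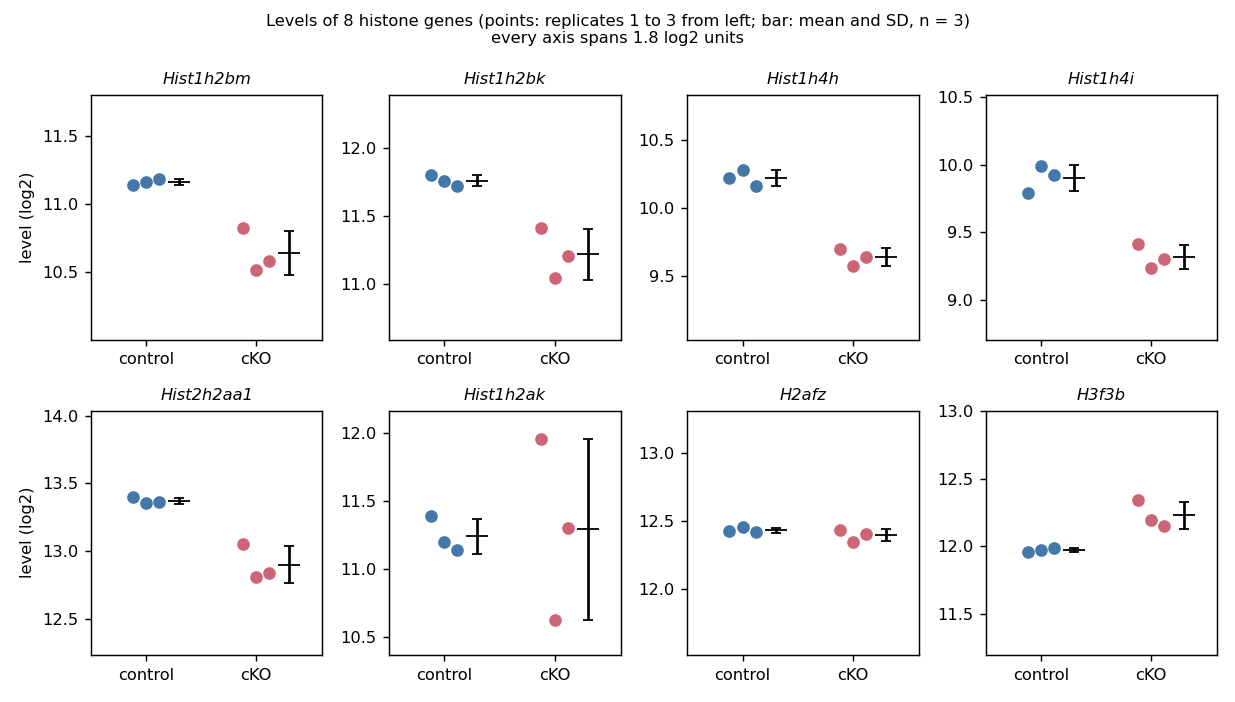
Level (normalised log2 intensity, y axis) of 8 histone genes on the 3 control and 3 cKO arrays (x axis), 1 point per array and a bar for mean and SD (n = 3); every axis spans the same range. Hist1h2bm, Hist1h2bk, Hist1h4h, Hist1h4i and Hist2h2aa1 separate completely with cKO lower, H3f3b with cKO higher, H2afz overlaps closely, and Hist1h2ak has its highest and its lowest value on cKO arrays 1 and 2.

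H4 is the most conserved histone, and its genes encode nearly the same protein throughout. All 14 tested H4 probes, of 10 genes, had differences below 0, with a median of -0.50 (70.7% of control). Of these, 5 passed, all in the Hist1 cluster, and 9 did not, where 2.57% of all tested probes passed as lower. On 8 of the 14 the groups did not overlap with cKO below, where 15.0% of all tested probes did so. The count of 5 became 3, 1 and 2 without control replicate 1, 2 or 3, and 7, 1 and 1 without cKO replicate 1, 2 or 3. Hist1h4h read 10.22, 10.28 and 10.16 in control and 9.70, 9.57 and 9.64 in cKO. The gap of -0.58 (SE 0.09) exceeded the SD of 0.06 in both groups (n = 3 each) and had the smallest adjusted p of the family, 0.0099.

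Hist1h4i, one of the genes whose promoter is printed above, read 9.79, 9.99 and 9.93 in control and 9.41, 9.24 and 9.31 in cKO. Its difference was -0.58 (SE 0.10, adjusted p = 0.0155) with no overlap. Hist1h4j read 9.81, 9.82 and 9.84 in control and 9.38, 9.14 and 9.37 in cKO, a difference of -0.53 (SE 0.11, adjusted p = 0.0240). These genes thus lay at 66.8% and 69.4% of control. Hist1h4a gave -0.47 (SE 0.10, adjusted p = 0.0250), with 11.43, 11.67 and 11.58 in control and 11.18, 11.02 and 11.07 in cKO.

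Hist1h4m, the other H4 gene with a printed promoter, read 8.84, 8.84 and 8.67 in control and 8.43, 8.01 and 8.18 in cKO at the probe that passed, a difference of -0.57 (SE 0.14, adjusted p = 0.0476). Its other probe gave -0.34 (adjusted p = 0.271) and its groups overlapped. Hist1h4k at -0.60 (adjusted p = 0.0741) and Hist1h4f at -0.72 (adjusted p = 0.0604) did not pass, and the Hist1h4f value comes from a probe detected on 1 of 3 cKO arrays. The other tested probe gave -0.26 (adjusted p = 0.511) for Hist1h4k and -0.48 (adjusted p = 0.112) for Hist1h4f. Hist4h4, the lone H4 gene outside the main clusters on another chromosome, gave -0.50 (adjusted p = 0.249) and -0.13 (adjusted p = 0.771), near its detection limit in both probes.

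H2A genes did not move as 1 group. Of 20 tested H2A probes, of 13 genes, 4 passed, with a median difference of -0.09, where 2.57% of all tested probes passed as lower. In the Hist2 cluster all 7 H2A probes lay below 0, with a median of -0.47 and 3 past the threshold, a count that was 0, 0 and 2 without control replicate 1, 2 or 3, and 4, 0 and 0 without cKO replicate 1, 2 or 3. Hist2h2aa1 read 13.40, 13.35 and 13.37 in control and 13.06, 12.81 and 12.84 in cKO, a difference of -0.47 (SE 0.09, adjusted p = 0.0174). Its second probe gave -0.49 (SE 0.12, adjusted p = 0.0482) and the remaining one -0.36 (adjusted p = 0.252), all without overlap between groups.

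Hist2h2ac, also an H2A gene, had probes that disagreed. The probe that passed read 10.60, 10.55 and 10.54 in control and 10.20, 9.61 and 9.88 in cKO, a difference of -0.66 (SE 0.14, adjusted p = 0.0307). The other read 13.64, 13.49 and 13.50 in control and 13.81, 13.20 and 13.37 in cKO, a difference of -0.08 (adjusted p = 0.783), with cKO array 1 the highest of all 6. Hist2h2aa2 gave -0.32 (adjusted p = 0.121) and Hist2h2ab -0.58 (adjusted p = 0.113).

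In the Hist1 cluster only Hist1h2ae passed among 13 H2A probes. It read 6.17, 5.86 and 6.16 in control and 5.25, 5.29 and 5.42 in cKO, a difference of -0.74 (SE 0.15, adjusted p = 0.0256), the largest among the family's probes that passed. It passed without control replicate 2, with a difference of -0.85, and not without any of the other 5 arrays. The probe was dim, with signals of 21.26 to 55.68 before normalisation, and its difference was -0.45 with an offset of 50. Of Hist1 H2A probes, 0 of 12 passed with a detection p under 0.01 on all arrays. Without a filter on dim probes 0 of 16 passed. The median of the 13 was -0.001, with 8 below 0 and 5 above. Behind this median stood arrays that differed: on 11 of the 13 probes cKO array 1 was the highest of all 6 arrays and cKO array 2 the lowest, with 0.60 to 1.33 between them. Hist1h2ak read 11.39, 11.19 and 11.14 in control and 11.96, 10.62 and 11.30 in cKO. The median SD of a probe was 0.57 among cKO arrays and 0.13 among controls.

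The medians of the 13 probes, taken as deviations from the control mean, were 0.58, -0.53 and -0.04 on cKO arrays 1 to 3. The Hist1 H2A result therefore rests on which array is counted: the median difference was -0.30 without cKO replicate 1, when all 13 lay below 0, and 0.27 without cKO replicate 2, when 11 lay above. Hist1h2an, with the largest difference above 0 among H2A genes, gave 0.15 (SE 0.29, adjusted p = 0.796), and Hist1h2af, whose probe had the highest mean, gave -0.20 (adjusted p = 0.333). The same order, with cKO array 1 highest and cKO array 2 lowest of all 6, was seen on 5 of the 62 other tested histone probes, those of Hist1h4k, Hist2h2ac, Hist2h3b, H1fx and H2afv, with 0.34 to 0.85 between the arrays. The medians on cKO arrays 1 to 3 were -0.34, -0.60 and -0.47 for Hist1 H2B and -0.39, -0.69 and -0.52 for Hist1 H4. For Hist2 H2A they were -0.32, -0.56 and -0.53, and array 2 was the lowest in each of these groups.

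**Figure D3:**
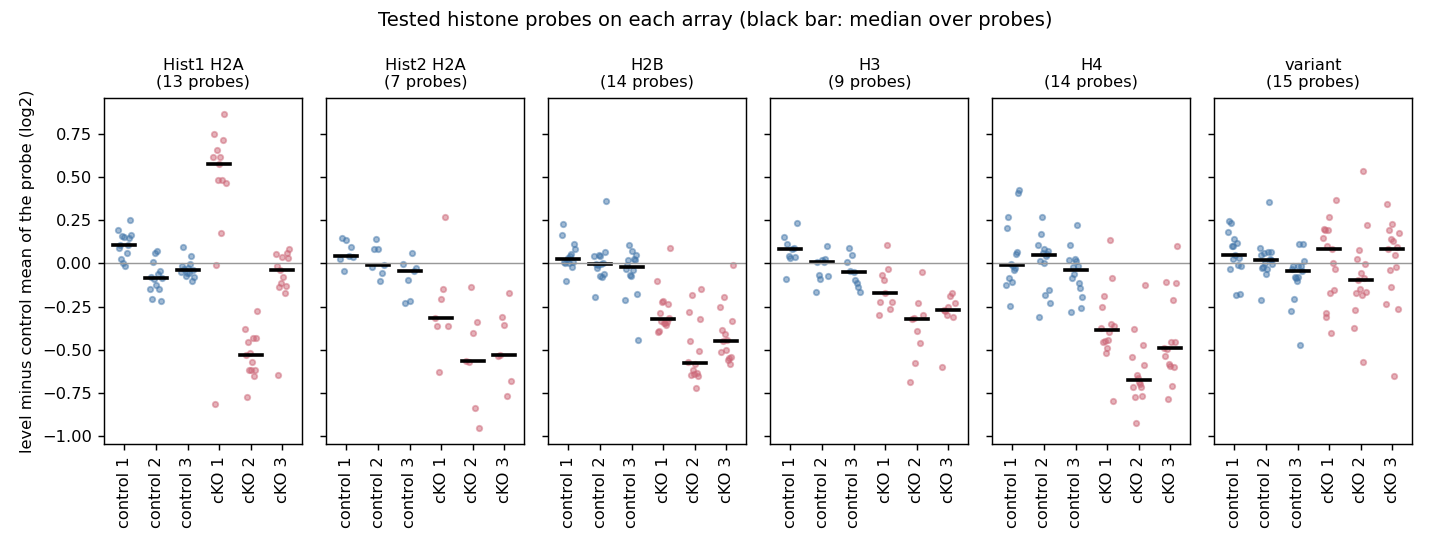
Level of tested histone probes on each of the 6 arrays, minus the probe's control mean (log2, y axis), by histone group, with a black bar for the median over probes. The tested probes of Hist1h1b and Hist1h1c are not drawn. The Hist1 H2A probes spread from 0.58 (median on cKO array 1) to -0.53 (cKO array 2), whereas the medians of H2B and H4 probes lie below 0 on all 3 cKO arrays and those of variant probes stay between -0.10 and 0.09.

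Many H2A and H2B genes are divergent neighbours that share a promoter, so the pair can be compared within each array. Among genes with a promoter window, from which the strand was read, RefSeq placed 6 H2A and H2B pairs head to head within 500 bases. Both members were tested in 4. Genes without a window could not enter a pair, among them Hist1h2bc and Hist2h2be, which had tested probes, so pairs may be missing. The H2A difference lay above the H2B difference in 4 of 4 pairs, by 0.41 for Hist1h2ag and Hist1h2bj, 0.54 for Hist1h2ah and Hist1h2bk, 0.48 for Hist1h2ak and Hist1h2bn and 0.51 for Hist1h2ad and Hist1h2bf. In these pairs 2 H2B genes and 0 H2A genes passed the threshold. The H2A minus H2B level of the last pair, as a deviation from its control mean, was 0.18, -0.19 and 0.02 in control and 0.84, 0.23 and 0.47 in cKO, so its groups did not overlap. In the other 3 pairs they did, with cKO array 2 inside the control range each time: the Hist1h2ah and Hist1h2bk pair gave 0.11, -0.13 and 0.01 in control and 0.92, 0.10 and 0.59 in cKO. The difference within pairs was not given a test of its own.

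**Figure D4:**
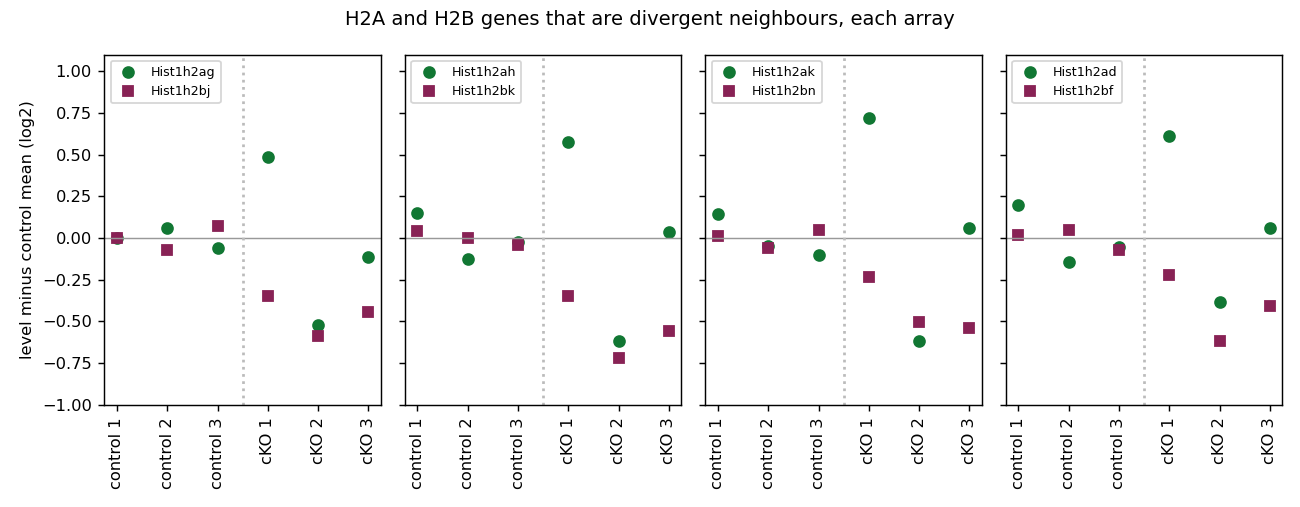
Level minus control mean (log2, y axis) of the H2A and the H2B gene of 4 divergent pairs on each of the 6 arrays (x axis). The H2B genes lie below 0 on all 3 cKO arrays, while the H2A partners are highest on cKO array 1 and lowest on cKO array 2.

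H3 carries most of the known methylation and acetylation sites of the nucleosome. All 9 tested replication-dependent H3 probes, of 7 genes, had differences below 0, with a median of -0.25. None of them passed the threshold. An unadjusted p under 0.05 in limma was reached by 2 of the 9, and by 4364 of all 19210 tested probes. On 5 of the 9 the groups did not overlap with cKO below, where 15.0% of all tested probes did so. Hist1h3a gave the largest difference, with 6.49, 6.18 and 6.35 in control and 6.04, 5.65 and 5.74 in cKO (-0.53, SE 0.17, adjusted p = 0.104). The groups did not touch, but the spread within each was wide relative to the gap. Hist2h3b gave the smallest, at -0.10 (SE 0.11, adjusted p = 0.639), with 10.82, 10.74 and 10.64 in control and 10.84, 10.50 and 10.55 in cKO.

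Linker histones of the Hist1 cluster did not pass: 3 probes of Hist1h1b and Hist1h1c were tested and 0 passed, also at an unadjusted p under 0.05. Hist1h1c, a linker histone found in most tissues, read 13.24, 13.22 and 13.18 in control and 13.28, 13.38 and 13.41 in cKO. All cKO arrays were above all control arrays there (0.15, SE 0.07, adjusted p = 0.292), but the other probe of the gene gave -0.01 (adjusted p = 0.948), and the first turned to -0.13 when arrays were scaled by their medians in place of quantiles. Hist1h1b gave -0.12 (adjusted p = 0.664).

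None of 15 tested variant histone probes, of 10 genes, passed the threshold. An unadjusted p under 0.05 in limma was reached by 2 of the 15, and by 4364 of all 19210 tested probes. The median difference of the 15 was -0.03 and the range -0.54 to 0.26, with adjusted p-values from 0.0761 to 0.941. The median deviations on cKO arrays 1 to 3 were 0.08, -0.10 and 0.09. H2afz, which encodes H2A.Z, found at promoters, read 12.42, 12.45 and 12.41 in control and 12.43, 12.34 and 12.41 in cKO, a difference of -0.03 (SE 0.07, adjusted p = 0.823). The groups overlapped. H2afv, the other H2A.Z gene, gave 0.11 (SE 0.08, adjusted p = 0.474).

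H3f3a and H3f3b both encode H3.3, which is laid down outside DNA replication. H3f3b read 11.96, 11.97 and 11.99 in control and 12.34, 12.20 and 12.15 in cKO, without overlap, yet did not pass (0.26, SE 0.08, adjusted p = 0.107). H3f3a gave -0.02 (adjusted p = 0.921). H2afx, the H2A variant phosphorylated at DNA breaks, gave 0.15 (SE 0.12, adjusted p = 0.512), and H2afj gave -0.03 (adjusted p = 0.941). H2afy and H2afy2 encode macroH2A proteins, which carry a large extra domain and are enriched on the inactive X chromosome: H2afy gave -0.07 (adjusted p = 0.719), while the probes of H2afy2 disagreed at -0.54 (SE 0.15, adjusted p = 0.0761) and 0.22 (adjusted p = 0.631). The replacement linker histones H1f0 and H1fx gave -0.15 (adjusted p = 0.692) and 0.09 (adjusted p = 0.827).

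The replication-dependent and variant medians, -0.32 and -0.03, were not set against each other with a test. Both moved down when the arrays were scaled by their medians alone, to -0.41 and -0.13. That scaling moved the median difference of tested probes with a mean of 12 and over from -0.01 to -0.27 and turned the split of all called probes from 753 higher and 494 lower to 782 higher and 1106 lower. Under it the H2B and H4 medians were -0.66 and -0.57, H2afz gave -0.27 and H3f3b 0.02.

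Genes that make, process or carry histones were read from a list of 37, holding the stem-loop binding machinery, transcription factors of histone genes and chaperones. Of these, 28 were tested and 0 passed, with a median of -0.09. An unadjusted p under 0.05 in limma was reached by 4 of the 28, and by 4364 of all 19210 tested probes. The stem-loop binding protein gene Slbp and the histone transcription coactivators Npat and Casp8ap2 were among 7 listed genes detected on 0 arrays. The 3 tested members with the highest means were the chaperones Npm1 at 0.31 (SE 0.12, adjusted p = 0.146), Npm3 at -0.08 (adjusted p = 0.660) and Nap1l4 at 0.06 (adjusted p = 0.674). Pou2f1, which encodes the Oct1 factor, and the H3 and H4 chaperone Nasp were picked after their values were seen. Pou2f1 read 7.90, 8.05 and 7.88 in control and 7.42, 7.62 and 7.47 in cKO, a difference of -0.44 (SE 0.13, adjusted p = 0.0918). Nasp gave -0.43 (SE 0.14, adjusted p = 0.107). Neither gene passed, although the groups of both separated.

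Because these histone genes are used while DNA is copied, 46 genes of replication and cell division were read beside them. Of 36 tested, 1 fell, where 2.57% of all tested probes passed as lower. That gene was Ezh2, the enzyme that methylates H3 at lysine 27. It read 8.24, 7.90 and 7.90 in control and 7.56, 7.15 and 7.07 in cKO (-0.75, SE 0.18, adjusted p = 0.0413). The call was lost without any of 5 of the 6 arrays in turn. The median of the list was -0.05, with 19 of 36 below 0, and its medians on cKO arrays 1 to 3 were 0.14, -0.30 and -0.03. The proliferation marker Mki67, picked after its values were seen, gave -0.49 (SE 0.20, adjusted p = 0.195) with overlapping groups. Picked in the same way, the replication genes Mcm2 to Mcm7 all lay above 0 and did not pass. They ranged from 0.05 (Mcm7) to 0.45 (Mcm6, SE 0.17, limma adjusted p = 0.164).

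Markers of other cells moved with the groups as well, and their part in the histone values was not tested. Over all tested probes 3.92% passed as higher and 2.57% as lower, and 4364 of 19210 had an unadjusted p under 0.05 in limma. Of 4 tested fat cell markers 3 rose, with a median of 1.36, and their summed level was 12.69 to 13.14 in control and 13.90 to 15.04 in cKO. Of 5 chromaffin cell markers 1 rose, Pnmt, the enzyme that makes adrenaline (0.97), with a median of 0.46 and a summed level of 15.08 to 15.57 in control and 15.77 to 16.10 in cKO. Erythroid cells, whose precursors divide, had 4 tested markers and 0 that passed (2 at an unadjusted p under 0.05), with a median of -0.76 and summed levels of 16.31 to 16.73 and 15.93 to 16.62. Their medians on cKO arrays 1 to 3 were -1.05, -1.02 and -0.07. Of 6 macrophage markers 1 fell, Cd68 (-1.13), with a median of -0.07 and summed levels of 12.38 to 12.59 and 12.13 to 12.87. Lymphocyte markers had 2 of 6 tested, 0 past the threshold and 0 at an unadjusted p under 0.05, with summed levels of 6.29 to 6.83 and 6.61 to 7.39, and endothelial markers had 3 of 4 tested, 0 past it and 1 at an unadjusted p under 0.05, with 12.58 to 12.80 and 12.52 to 12.99.

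Of the 21 histone genes with several tested probes, 3 had probes on both sides of 0, namely Hist1h1c, H2afv and H2afy2, and 4 had a probe that passed beside another that did not, namely Hist1h2be, Hist1h4m, Hist2h2aa1 and Hist2h2ac. With the probe of highest mean per gene, 11 of 41 replication-dependent genes passed, all lower, with a median of -0.32. No count with probes chosen in that way is given over all tested genes. The 11 of 41 are therefore not read against a background.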

How the data were processed

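Adrenal RNA of 6 samples, 3 labelled cKO and 3 control, was measured on 1-colour Illumina bead arrays. The deposited signals are linear intensity values per probe, not normalised, per the file headers, and 30.7% to 33.4% of an array's values were negative, which only a subtracted background allows. The deposited detection p-value of each signal was also read, per the file headers. The series matrix's deposited intensity values, linear with medians of 9.98 to 10.05, ranked probes as each sample's own signals did; the authors' method for them is not stated, and they served as an alternative. Every per-sample column was mapped to a sample by its name.

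Signals were background corrected with normexp from the detection p-values (limma 3.58.1, R 4.3.3, offset 16), put on the log2 scale and quantile normalised. An offset shrinks the differences of dim probes. Probes detected at p under 0.05 on 3 or more of 6 arrays were tested, 19210 of 45281, by limma (lmFit and eBayes, intensity trend on), two-sided and with no covariates. P-values were adjusted by Benjamini-Hochberg over all 19210, with a threshold of 0.05, and differences are log2, cKO minus control. Alternatives were median scaling, the series matrix, other offsets and filters, variance settings, a replicate block and leaving out each array. The arrays' number, 3 per group, limits the precision.

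Members and lists were chosen with earlier results of these data known. Text names every histone probe past the threshold, every tested variant gene, per replication-dependent type the genes with the highest mean and the largest difference either way, and from other lists those past the threshold or else the 3 with the highest means; other genes in the text were picked after their values were seen. Lists were read at 1 probe per gene, the one with the highest mean. The words higher, lower, rose and fell refer to these normalised levels.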

Additional observations from a re-analysis of the deposited data

How the results depend on the processing

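Under each of the alternative settings run here, 0 replication-dependent histone probes passed as higher and 0 variant probes passed in either direction. Median scaling gave 1888 called probes over the whole array, 782 higher and 1106 lower against 753 and 494, 1 histone regulator or chaperone gene and a variant median of -0.13. Without a filter on dim probes the replication-dependent median was -0.19, and without the intensity trend 6 replication-dependent probes passed. Leaving out 1 array at a time gave 518 to 1273 called probes, 2 to 20 replication-dependent probes, 0 to 1 proliferation genes, a replication-dependent median of -0.41 to -0.28 and a variant median of -0.04 to 0.02. The cause of these changes was not tested. Leaving out 1 array changes both the number of arrays and which arrays are used. The replication-dependent count was 14 with the series matrix, with an offset of 50 and with a detection p under 0.01 on all arrays, 12 without a filter, 19 with robust variance and 21 with array weights. Of all 19210 tested probes, 489 passed as lower with the series matrix and 470 with an offset of 50. For the other settings just named no such count is given, so their histone counts are not read against a background. Replicate numbers are shared between the groups. Same-numbered arrays correlated in their deviations at 0.04, 0.04 and -0.01, and differently numbered ones at -0.11 to 0.07. With 3 arrays per group these values cannot tell whether same-numbered arrays share more than a number. With a replicate block 960 probes, 11 replication-dependent probes, 0 variant probes, 0 regulators and 1 proliferation gene passed. The signal over background limits the 32 untested histone probes.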
